A study of Mus musculus with 80 samples.

Results

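The genes described here are Cnr1, which encodes the CB1 cannabinoid receptor, its partner gene Cnrip1, and 6 genes of the enzymes that make and break down its lipid ligands (Dagla, Daglb, Napepld, Mgll, Abhd6 and Faah). They were chosen by name as one pathway, and all 8 were listed among the 25160 genes of the table. The cells came from the dorsomedial striatum of adult female mice that had no drug treatment, 8 to 12 weeks old, and carried both reporters, Drd1a-TdTomato and Drd2-EGFP, each in heterozygous form. Both reporters are BAC transgenes, so they label a cell by the activity of the Drd1a or the Drd2 promoter, and the site had been marked by a stereotaxic injection of India ink and a nuclear Hoechst dye. Single cells were sorted by FACS into wells, and 40 Drd1 and 40 Drd2 cells were sequenced, each well as its own library. The study reports usable data from fewer cells than it tried to sequence. The labels mark none as left out, so all 80 were kept. Drd2-EGFP also labels cholinergic interneurons, and 2 Drd2 cells with Chat (choline acetyltransferase) above 100 TPM were set apart as such. This left 40 D1 MSN and 38 D2 MSN, where MSN stands for medium spiny neuron, the projection neuron of the striatum. The study states 3 animals but the labels tie no cell to an animal, so each subtype counted as 1 sample, no test was made, and a difference is given beside the same difference within each of the 2 large plates.

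In the striatum, strong activation of an MSN through glutamate receptors leads diacylglycerol lipases in its dendrites to make 2-arachidonoylglycerol (2-AG). This lipid travels backwards across the synapse, activates CB1 on the incoming axon and lowers transmitter release, until hydrolases break it down. Anandamide, a second ligand, is made by another route and is hydrolysed by fatty acid amide hydrolase. MSN also carry CB1 on their own axons and collaterals, and loss of this signaling alters synaptic depression and motor behavior.

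The values were TPM, which by definition are scaled for gene length and to a fixed total per cell. The paper reports a bias of signal toward the 3' end of transcripts, and a gene annotation that lacked this end for Chrm4. Levels of different genes are set side by side as listed. How far their order depends on this bias or on annotation was not tested. The TPM keep no read count, the depth of a cell is unknown, and a gene without signal in a cell is called listed at 0. As a measure of how much of a cell was read, 648 to 8657 genes were above 1 TPM per D1 MSN (median 5722) and 1215 to 7942 per D2 MSN (median 4928). Fewer than 2000 genes were above 1 TPM in 1 D1 and 2 D2 MSN, which were kept. Whether the study counted these as usable is not stated. Plate FACS051_5 held 18 D1 and 16 D2 MSN, with medians of 5109 and 5923 genes. Plate FACS086_4 held 21 D1 and 19 D2 MSN, with medians of 5730 and 4617 genes, so the subtype with more genes per cell differed between the plates. Plate FACS086_9 held 4 MSN. General MSN markers summed to a median of 2698 TPM among the D1 and 3113 TPM among the D2 cells, and the markers of the own subtype summed to over 100 TPM in 38 of 40 D1 and in all 38 D2 MSN. Those of the other subtype did so in 2 D1 and 3 D2 MSN. In the library labelled Drd1 in well B02 of plate FACS086_4, the MSN markers summed to 2.82 TPM and the D1 markers to 0.871 TPM. In the library labelled Drd1 in well D04 of plate FACS051_5, Drd1 was at 2.03 TPM, whereas all 5 listed astrocyte markers were above 1 TPM and summed to 13081 TPM, led by Aldoc. No other MSN library summed to 100 TPM in that list. Oligodendrocyte markers summed to over 100 TPM in 3 D1 MSN, the library in well D04 among them. Markers of other interneurons did so in 2 D1 MSN and those of cortical excitatory neurons in 1 D1 MSN. The 2 listed endothelial markers did so in 4 D1 and 2 D2 MSN. In all, 4 libraries labelled Drd1 had Drd1 under 10 TPM, and values without them are given where they matter.

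Cnr1 had the highest mean of the 8 genes over the 78 MSN, and 10.4% of all listed genes had a higher one. The gene lies on chromosome 4 (GRCm38, 33924593 to 33948831, plus strand). Its level spanned 0 to 266 TPM over the 40 D1 MSN, with a median of 14.5 TPM and a mean of 44.5 TPM. Across the 38 D2 MSN it ran from 0 to 299 TPM, with a median of 0.279 TPM and a mean of 45.6 TPM. The groups overlapped over nearly their whole range, and the means were close while the medians were not. More than 1 TPM was found in 25 D1 MSN, a share of 62.5% (45.8 to 77.3%, the exact Clopper-Pearson 95% interval, which covers counting error only). Among D2 MSN, 16 cells passed that level, or 42.1% (26.3 to 59.2%). Where it was found it was seldom low: 21 of the 25 D1 MSN and 15 of the 16 D2 MSN lay above 10 TPM. The median within these cells was 40.6 TPM for the D1 and 87.7 TPM for the D2 subtype, so the D2 MSN held fewer cells with Cnr1 but at higher levels.

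The gap in the share of Cnr1 cells lay on one plate. On plate FACS051_5, Cnr1 was found in 66.7% of the D1 cells and in 62.5% of the D2 cells. On plate FACS086_4, the shares were 57.1% (34.02 to 78.2%) and 26.3% (9.15 to 51.2%), and the intervals overlapped. Over all plates the shares lay 20.4 percentage points apart, and 4.23% of the 15671 genes that averaged 1 TPM or more had a D1 share at least as far above the D2 share. The D2 MSN of plate FACS086_4 were also the set with the fewest genes per cell. Among D1 MSN, cells with Cnr1 had a median of 6191 genes and cells without it 4922 genes. Among D2 MSN the medians were 4772 and 4946 genes, so there the cells without Cnr1 were not poorer in genes. The part of depth in the gap was not tested.

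Folds are given as log2 of the ratio of mean levels, D1 to D2, after 1 TPM was added to each mean, a scale that understates changes of low genes. For Cnr1 it was -0.04. Within plates it was -0.31 on FACS051_5 and 0.36 on FACS086_4, so the sign differed between plates. Taking the difference of the mean log2 values instead, which weighs the number of cells with Cnr1 more than their level, gave 0.80.

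**Figure D1:**
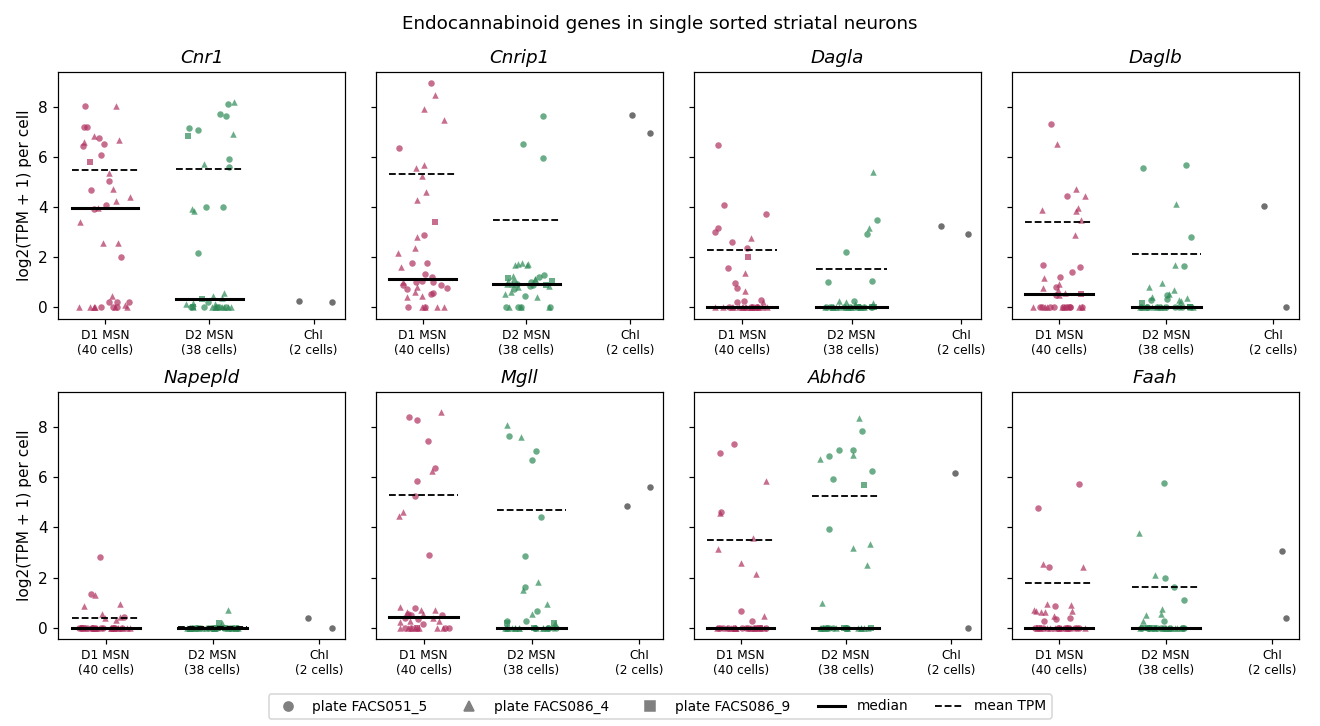
Level of each gene in every cell, as log2 of TPM plus 1 on the vertical axis, for 40 D1 MSN, 38 D2 MSN and 2 cholinergic interneurons (ChI), with the plate by symbol, the median as a solid line and the mean TPM as a dashed line. Most genes show a layer of cells near 0 and a scatter of cells above it, up to 391 TPM for Mgll, so means stand far above medians. For Cnrip1 the bulk of cells lies between 0 and 2.5 TPM, and the highest cell is at 500.6 TPM.

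Cnrip1 encodes a small protein that binds the intracellular tail of CB1. It lies on chromosome 11 (17051586 to 17079371, plus strand). Its level ran from 0 to 500.6 TPM in D1 MSN, with a median of 1.21 TPM and a mean of 39.7 TPM. The D2 MSN ran from 0 to 203 TPM, with a median of 0.931 TPM and a mean of 10.2 TPM. Unlike Cnr1, Cnrip1 was found at low levels in many cells. Cells above 1 TPM made up 57.5% of D1 MSN (23 cells, 40.9 to 73.0%) and 44.7% of D2 MSN (17 cells, 28.6 to 61.7%), but the gene stood above 10 TPM in only 10 and 3 of them. The limit of 1 TPM lay near both medians. With the listed TPM of each cell rescaled to one total, the shares were 62.5% and 57.9%. In D2 MSN, cells above 1 TPM had fewer genes than the others (medians of 4187 and 5627), and in D1 MSN more (6143 and 5429). The part of depth in these shares was not tested. The 3 highest cells held 69.3% of the summed TPM in D1 MSN and 91.5% in D2 MSN, so the means rest on few cells.

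Among the 8 genes, Cnrip1 had the largest log2 fold, 1.86, toward D1 MSN. Within plates it was 0.54 on FACS051_5 and 4.48 on FACS086_4, where the 19 D2 MSN reached no more than 2.45 TPM while 8 of the 21 D1 MSN lay above 10 TPM. Without plate FACS086_4 the fold was 0.71. It was 2.76 without the highest D2 MSN (well A12 of FACS051_5) and 1.36 without the highest D1 MSN (well C06 of FACS051_5). That D1 cell carried 3676 TPM of Penk, the enkephalin gene that marks D2 MSN, beside 297 TPM of Drd1, and its labelled subtype thus went against one of its markers. Kept in the D2 group, the 2 cholinergic interneurons brought the fold to 1.10. In GENCODE M21, 4.97% of the exonic bases of Cnrip1 overlap Plek on the opposite strand.

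Dagla and Daglb encode the diacylglycerol lipases α and β, which make 2-AG from diacylglycerol, and DAGLα is the enzyme behind most of the synaptic 2-AG of the adult brain. Dagla lies on chromosome 19 (10245265 to 10304877, minus strand) and Daglb on chromosome 5 (143464584 to 143505942, plus strand). Dagla ran from 0 to 88.8 TPM in D1 MSN, with a median of 0 and a mean of 3.92 TPM. In D2 MSN it ran from 0 to 41.7 TPM, with a median of 0 and a mean of 1.93 TPM. Both groups thus lay mostly at 0 and overlapped. Cells with more than 1 TPM of Dagla numbered 11 among D1 MSN (27.5%, 14.6 to 43.9%) and 7 among D2 MSN (18.4%, 7.74 to 34.3%).

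Dagla was found mainly on plate FACS051_5, in 44.4% of D1 and 31.3% of D2 MSN, against 9.52% and 10.5% on FACS086_4. The log2 fold of Dagla amounted to 0.75 over all plates, to 1.91 on FACS051_5 and to -1.40 on FACS086_4. Single cells moved it: the fold over all plates was -0.09 without the D1 cell at 88.8 TPM and 1.41 without the D2 cell at 41.7 TPM. No direction can be read for Dagla from these cells.

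Daglb ran from 0 to 159 TPM in D1 MSN, with a median of 0.462 TPM and a mean of 9.76 TPM. The D2 MSN ran from 0 to 50.9 TPM, with a median of 0 and a mean of 3.43 TPM. The groups overlapped, with 17 D1 and 20 D2 MSN listed at 0. Its cells above 1 TPM were 15 D1 MSN (37.5%, 22.7 to 54.2%) and 6 D2 MSN (15.8%, 6.02 to 31.3%). The share was higher in D1 MSN on both plates, at 33.3 against 25% on FACS051_5 and at 42.9 against 10.5% on FACS086_4. The log2 fold was 1.28, with 0.58 and 2.26 within the plates. Without the D1 cell at 159 TPM it was 0.65, and that cell was one of the 4 libraries with low Drd1, although Pdyn (prodynorphin, a D1 marker) stood at 366 TPM in it. Without those 4 libraries the fold was 0.75. A further limit is that 24.1% of the exonic bases of Daglb overlap Rac1 on the opposite strand, and no source used here states that reads were counted by strand.

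Counting the lipases together, Dagla or Daglb was found in 21 of 40 D1 MSN (52.5%, 36.1 to 68.5%) and in 12 of 38 D2 MSN (31.6%, 17.5 to 48.7%). Both were found in the same cell in 5 D1 MSN and 1 D2 MSN. On plate FACS051_5 the shares with either lipase were 61.1% and 50%, and on FACS086_4 42.9% and 21.1%.

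Napepld encodes NAPE-PLD, the phospholipase D that releases anandamide from its membrane precursor. It lies on chromosome 5 (21662901 to 21701396, minus strand). It was the lowest of the 8 genes. In D1 MSN it ran from 0 to 6.06 TPM with a median of 0 and a mean of 0.312 TPM, and 3 of 40 cells were above 1 TPM (7.5%, 1.57 to 20.4%). None of the 38 D2 MSN was above 1 TPM, for which the exact interval ends at 9.25%, and the highest of them reached 0.609 TPM. With a mean under 1 TPM, Napepld was the one gene of the 8 left out of the counts of folds below. Any value above 0 was listed in 10 D1 and 3 D2 MSN. On the log2 scale the fold of Napepld came to 0.36 (within FACS051_5 0.53, within FACS086_4 0.23), and with 0.1 TPM added in place of 1 TPM it was 1.74, so its size depends on the amount added.

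Mgll encodes monoacylglycerol lipase, the enzyme that hydrolyses most of the 2-AG in brain, largely on the presynaptic side. It lies on chromosome 6 (88724412 to 88828360, plus strand). In D1 MSN it ran from 0 to 391 TPM, with a median of 0.350 TPM and a mean of 38.2 TPM. In D2 MSN it ran from 0 to 276 TPM, with a median of 0 and a mean of 24.9 TPM. The ranges overlapped, and in both subtypes about the same share of cells held nearly all of the signal. More than 1 TPM of Mgll was seen in 27.5% of D1 MSN (11 cells, 14.6 to 43.9%) and in 26.3% of D2 MSN (10 cells, 13.4 to 43.1%). In those cells the median was 76.6 TPM for D1 MSN and 62.4 TPM for D2 MSN. The fold of Mgll on the log2 scale was 0.60, made up of 0.92 within FACS051_5 and -0.04 within FACS086_4.

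Abhd6 encodes a serine hydrolase of the postsynaptic membrane that breaks down 2-AG near the site where it is made. It lies on chromosome 14 (8002902 to 8056763, plus strand), and it was the one gene of the 8 that was at least 2-fold apart in the same direction over all cells and within both large plates. In D1 MSN it ran from 0 to 163 TPM, with a median of 0 and a mean of 10.5 TPM. The D2 MSN spanned 0 to 334 TPM, with a median of 0 and a mean of 36.9 TPM. The groups overlapped, and 28 D1 and 23 D2 MSN were listed at 0. The cells above 1 TPM were 9 D1 MSN (22.5%, 10.8 to 38.5%) and 14 D2 MSN (36.8%, 21.8 to 54.0%). Where it was found, the median was 22.8 TPM for the D1 and 90.1 TPM for the D2 subtype, and 6 and 11 of these cells lay above 10 TPM. The share of cells was thus higher in D2 MSN, with intervals that overlapped. The higher level in these cells was seen on FACS086_4 (medians of 9.35 and 56.9 TPM) but not on FACS051_5, where the median was 124 TPM over 3 D1 MSN and 116 TPM over 7 D2 MSN.

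On the log2 scale, the fold of Abhd6 was -1.73, toward D2 MSN. Within FACS051_5 it was -1.43 (means of 17.3 and 48.3 TPM) and within FACS086_4 -2.36 (5.11 and 30.5 TPM). On FACS051_5 the gene was above 1 TPM in 3 of 18 D1 and 7 of 16 D2 MSN, and on FACS086_4 in 6 of 21 and 6 of 19. Leaving out any single cell gave folds between -2.33 and -1.38. The value furthest from the rest, -2.33, came without the D1 cell in well B11 of FACS051_5, which carried 163 TPM. The second highest D1 value, 124 TPM, was that of the library in well D04 with the astrocyte markers, and without the 4 libraries with low Drd1 the fold was -2.05. The gene stayed past a 2-fold difference under each of the 11 alternative ways of computing the fold.

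Faah encodes fatty acid amide hydrolase, which breaks down anandamide. It lies on chromosome 4 (115967145 to 116017926, minus strand). It ran from 0 to 52.8 TPM in D1 MSN, with a median of 0 and a mean of 2.48 TPM. In D2 MSN it ran from 0 to 54.4 TPM, with a median of 0 and a mean of 2.07 TPM. The groups overlapped throughout, and few cells held the gene, namely 5 D1 MSN (12.5%, 4.19 to 26.8%) and 6 D2 MSN (15.8%, 6.02 to 31.3%). The log2 fold was 0.18, with 0.26 and -0.21 within the plates. It became -0.49 without the highest D1 cell (well B11 of FACS051_5) and 1.08 without the highest D2 cell (well B10 of FACS051_5), so it gave no direction.

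**Figure D2:**
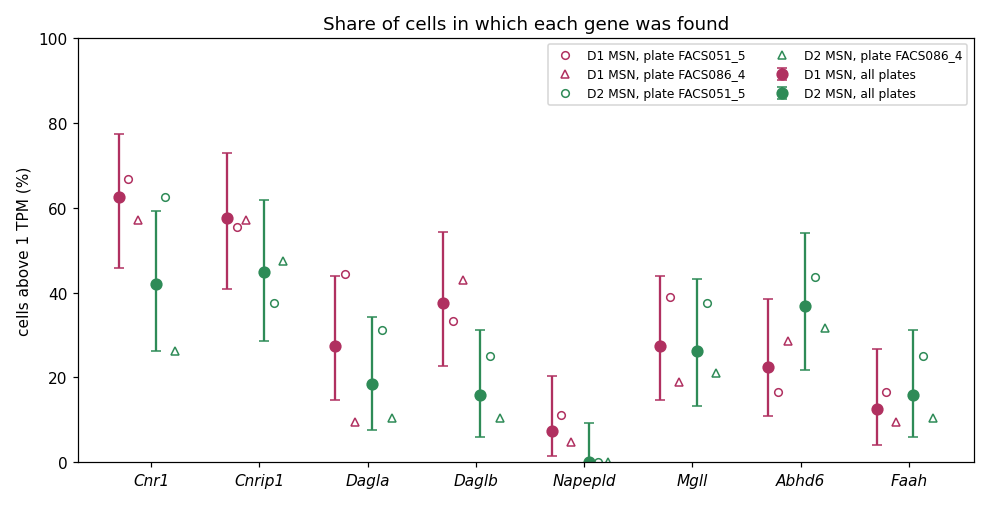
Share of cells above 1 TPM (vertical axis, percent) for each gene in D1 MSN and D2 MSN, as filled points over all plates with exact 95% intervals and as open symbols within the 2 large plates. Cnr1 lies at 57.1% of D1 MSN and 26.3% of D2 MSN on plate FACS086_4 and at 66.7% and 62.5% on FACS051_5, Daglb is higher in D1 MSN and Abhd6 in D2 MSN on both plates, and all pairs of intervals overlap.

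Over the 4 sets made by the 2 subtypes and the 2 large plates, the mean ran from 26.3 to 69.9 TPM for Cnr1, from 24.6 to 56.1 TPM for Mgll, from 1.11 to 46.3 TPM for Cnrip1 and from 5.11 to 48.3 TPM for Abhd6. These 4 genes exchanged places between the sets, and each ranked first or second in at least one of them. The other 4 lay below all of these in both sets of FACS051_5. Daglb had means from 1.201 to 10.5 TPM, Dagla from 0.385 to 8.10 TPM, Faah from 0.679 to 4.73 TPM and Napepld from 0 to 0.442 TPM. Daglb stood above Faah in all 4 sets, Dagla changed places with both, and Napepld came last in all 4. In D2 MSN of FACS086_4, Cnrip1 at 1.11 TPM lay below Dagla at 2.65 TPM and Daglb at 1.201 TPM. The hydrolases that act on 2-AG (Mgll, Abhd6) were thus at higher mean levels than the lipases that make it (Dagla, Daglb) in 3 of the 4 sets, and in the remaining one, D1 MSN of FACS086_4, Daglb at 9.57 TPM stood above Abhd6 at 5.11 TPM. This is an order of listed TPM, with the limit on comparing genes given above.

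Of the 7 genes that averaged 1 TPM or more in the MSN, 3 (42.9%) had a log2 fold of at least 1 in size. Among all 15671 genes with such a mean, 35.8% did, so the share among these 7 was near that of genes in general. Cnrip1 and Daglb were higher in D1 MSN, a direction taken by 21.1% of all genes at that fold. Abhd6 was higher in D2 MSN, where 14.8% of all genes were. Holding one direction at that fold over all cells and within both large plates was seen for 1 of the 7 and for 10.1% of all genes. The median log2 fold was 0.60 over the 7 genes and 0.09 over all genes. The share of cells above 1 TPM was higher in D1 MSN for 5 of the 7 and for 62.6% of all genes, with a median difference of 8.29 percentage points over all 8 and 2.5 over all genes tested. The counts therefore did not set these genes apart, and the differences are those of single genes. Leaving out a single cell moved the count of 3 to between 2 and 4.

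**Figure D3:**
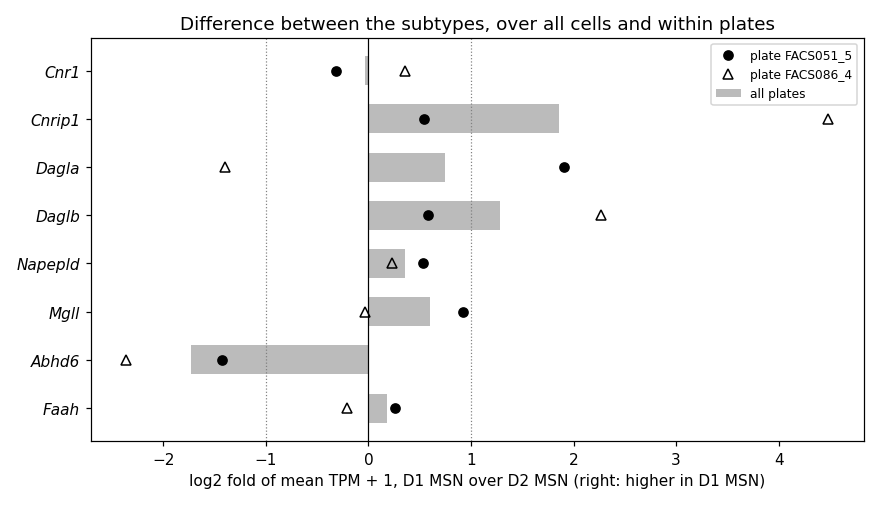
Difference between the subtypes for each gene, as the log2 fold of mean levels (horizontal axis, right: higher in D1 MSN), as a bar over all plates and as symbols within the 2 large plates, with dotted lines at a 2-fold difference. The plates lie on the same side of 0 for Cnrip1, Daglb, Napepld and Abhd6 and on opposite sides for the other 4 genes, and both lie past the dotted line for Abhd6 alone.

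Because 2-AG is made, sensed and broken down in cells that meet at a synapse, it was asked which of the genes were found in the same cell. A D1 MSN held 0 to 5 of the 8 genes above 1 TPM, with a median of 3, and a D2 MSN 0 to 5 with a median of 2. None of the genes was found in 2 D1 and 5 D2 MSN, and 4 or more in 12 D1 and 6 D2 MSN. The number went with the genes found per cell in D1 MSN (Spearman's rho 0.61 over 40 cells) and with a rho of 0.25 over the 38 D2 MSN. Within plates, rho was 0.69 and 0.63 in D1 MSN, but 0.54 on FACS051_5 and -0.17 on FACS086_4 in D2 MSN. Cells of a subtype share plates, so these values are descriptions.

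Cnr1 and Cnrip1 were the pair most often found together, in 23 of the 78 MSN. Of the 8 genes, they were also those found in the most cells. Cnrip1 was found in 56.1% of the cells with Cnr1, against 51.3% of all MSN. Cnr1 was found in 57.5% of the cells with Cnrip1, against 52.6% of all MSN. Each share thus lay only slightly above that among all MSN. The levels of Cnr1 and Cnrip1 had a Spearman's rho of 0.08. Cnr1 went with Dagla more closely: 13 of the 18 cells with Dagla also had Cnr1, and rho was 0.30. The overlap lay in the D1 MSN, where 10 of 11 cells with Dagla had Cnr1 (rho 0.45), whereas in D2 MSN 3 of 7 did (rho 0.08). In the D1 MSN, cells with Dagla also had more genes, with a median of 6588 against 5429. Cnr1 together with either lipase was found in 17 D1 and 7 D2 MSN, and Cnr1 together with Mgll or Abhd6 in 15 D1 and 9 D2 MSN. Cnr1 was the only one of the 8 genes in 3 cells of each subtype.

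Over all MSN, the hydrolases Mgll and Abhd6 shared 5 cells, near the 6.2 cells given by the product of their shares. Mgll or Abhd6 was found in 19 D1 MSN (47.5%, 31.5 to 63.9%) and in 20 D2 MSN (52.6%, 35.8 to 69.0%). Both were found together in 1 D1 MSN and 4 D2 MSN, against 2.5 and 3.7 cells by the product of the shares. Over the MSN, 21 cells had Mgll, 23 had Abhd6 and 5 had both, so that 23.8% of the cells with Mgll had Abhd6, a gene found in 29.5% of all MSN. The shares with a 2-AG hydrolase lay close in the subtypes, with Abhd6 in more cells than Mgll in D2 MSN (14 and 10) and in fewer in D1 MSN (9 and 11). In D1 MSN that order held on FACS051_5 (3 and 7 of 18) and turned on FACS086_4 (6 and 4 of 21). Mgll and Faah had the highest correlation of the 28 pairs (rho 0.39 over 78 MSN), which came from the D2 MSN, where 5 of the 6 cells with Faah also had Mgll (rho 0.59), against 1 of 5 in D1 MSN (rho 0.14). In the D2 MSN, both genes also went with the number of genes per cell (rho 0.40 for Mgll and 0.41 for Faah). Over all 28 pairs, rho ran from -0.20 to 0.39 with a median of 0.11.

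A few cells carried several of the highest values. The D2 MSN in well C09 of plate FACS086_4 was the highest D2 cell for Cnr1 (299 TPM), Dagla (41.7 TPM) and Abhd6 (334 TPM), with Mgll and Daglb listed at 0. It carried all 5 MSN markers and 3306 TPM of Penk, with 2 of the 4 D2 markers above 1 TPM and 192 TPM of the D1 marker Tac1. The D1 MSN in well B11 of plate FACS051_5 was the highest D1 cell for Abhd6 (163 TPM) and Faah (52.8 TPM), with 107 TPM of Cnr1 and Mgll listed at 0. The D2 MSN in well C12 of that plate had Mgll at 201 TPM, Cnrip1 at 91.4 TPM and Daglb at 50.9 TPM, with Abhd6 listed at 0.

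**Figure D4:**
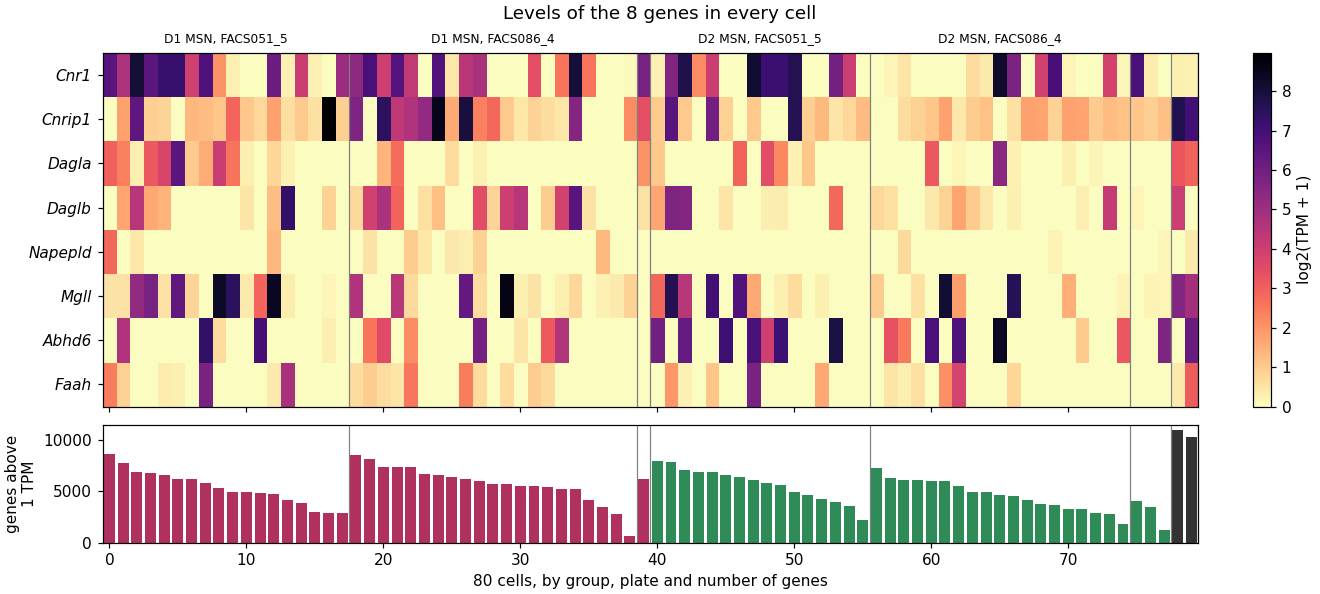
Level of the 8 genes (rows, color as log2 of TPM plus 1) in all 80 cells (columns), ordered by subtype, plate and, below, the number of genes above 1 TPM in the cell; the unlabelled blocks are the 1 D1 and 3 D2 MSN of plate FACS086_9 and, at the right, the 2 cholinergic interneurons. Dark cells are scattered rather than forming a common block, with Cnr1 dense in D1 MSN of both plates and sparse in D2 MSN of FACS086_4.

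The 2 cholinergic interneurons, large local neurons that supply the striatum with acetylcholine, are described apart from the MSN. Cnr1 was at 0.188 and 0.167 TPM in them. The gene was also not above 1 TPM in 15 D1 and 22 D2 MSN. Cnrip1 was at 204 and 126 TPM in the interneurons, and the first of these lay above every D2 MSN. It did not lie above every D1 MSN, as the highest of those had 500.6, 358 and 242 TPM. Mgll was at 48.6 and 27.9 TPM, and Dagla at 8.48 and 6.67 TPM. Both cells thus had the partner gene and the main 2-AG hydrolase, with next to no message of the receptor. Daglb was found in one of them (15.5 TPM), Abhd6 in the other (70.8 TPM), Faah at 7.42 TPM in the latter, and Napepld in neither above 0.290 TPM. They had 10912 and 10251 genes above 1 TPM, more than any MSN, and 2 cells on one plate allow no comparison.

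Beside these 8, a list of 52 other genes of the pathway was drawn up by function, of which 49 were listed and 39 averaged 1 TPM or more. A log2 fold of at least 1 in size was found for 15 of the 39, which is 38.5% against 35.8% of all genes, with 10 higher in D1 MSN and 5 in D2 MSN. Of the 15, 8 were above 1 TPM in no more than 8 MSN, so that 1 or a few cells made the fold. The median log2 fold of the 39 was 0.36. The list thus differed between the subtypes about as often as other genes did. Naaa, Fabp3 and Plcb4 held their direction past a 2-fold difference within both large plates as well, 3 of the 39 (7.69%), against 10.1% of all genes.

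Naaa, the lysosomal acid amidase that hydrolyses palmitoylethanolamide and, less well, anandamide, averaged 26.4 TPM over the D1 and 0.774 TPM over the D2 cells. It was found in 11 D1 and 2 D2 MSN, and its log2 fold was 3.95, with 1.71 and 5.48 within the plates. A single D1 cell at 623 TPM held 59.1% of the D1 sum, and without it the fold was 2.77. Fabp3, a fatty acid binding protein, had means of 50.5 TPM in D1 and 110 TPM in D2 MSN. Fabp3 was found in 12 D1 and 22 D2 MSN, with a log2 fold of -1.11 and of -1.17 and -1.19 within the plates, but of -0.81 over all plates without its highest D2 cell. Plcb4, a phospholipase C that yields the diacylglycerol used by the lipases, had means of 0.496 and 7.49 TPM, was found in 7 D1 and 8 D2 MSN, and had a log2 fold of -2.50, with -2.89 and -2.31 within the plates. Of its D2 sum, 49.7% lay in a single cell at 142 TPM, without which the fold was -1.70.

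The receptors other than CB1 were scarce. Cnr2, which encodes the CB2 receptor of immune cells, was above 1 TPM in 1 D1 and 2 D2 MSN, with means of 0.103 and 0.182 TPM. Trpv1, the capsaicin receptor that anandamide can open, reached no more than 0.817 TPM in D1 MSN and was listed at 0 in every D2 MSN. Trpv2, a related channel, was the exception, with 29 D1 and 22 D2 MSN above 1 TPM. Its medians of 1.75 and 1.59 TPM lay near that limit. The means were 6.27 and 2.53 TPM and the log2 fold was 1.04. A single D1 cell held 62.9% of the D1 sum, and without it the fold was -0.06. Gpr18 was found in a single D1 MSN (135 TPM), while every D2 MSN was listed at 0.

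Among the genes of synthesis, Plcb1 stood highest, at 133 TPM in D1 and 126 TPM in D2 MSN. Gde1, a phosphodiesterase of an alternative anandamide route, followed at 93.3 and 134 TPM. Both were found in most cells of either subtype, with folds under 2 over all plates, although Gde1 had a log2 fold of -1.31 on FACS051_5 and 0.26 on FACS086_4. Gdpd3 (log2 fold 2.36) and Inpp5d (1.42) each rested on 1 D1 and 1 D2 cell, and Plcb2 on 1 D1 cell at 95.0 TPM, every D2 MSN being listed at 0. Among the genes of breakdown, Abhd12, a further 2-AG hydrolase, had the highest mean, at 167 TPM in D1 and 86.3 TPM in D2 MSN. Abhd12 was found in 31 D1 and 23 D2 MSN, with a log2 fold of 0.95, and stood above both Mgll and Abhd6. Pnpla6, a lysophospholipase, had a log2 fold of -1.17, but 0.73 on plate FACS051_5.

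Of the partners of CB1, Gnao1 (the G protein Go, through which CB1 signals) averaged 159 TPM in D1 and 224 TPM in D2 MSN, and Wasf1, a regulator of actin, 98.2 and 174 TPM. Arrb2 (log2 fold 1.12) and Gnai1 (1.11) were higher in D1 MSN and Gnai3 (-1.41) in D2 MSN, none of them past a 2-fold difference within both plates. Without the highest cell of each gene, the folds were 0.52, 0.76 and -0.79, all under a 2-fold difference. Arrb2 was above 1 TPM in 5 D1 and 3 D2 MSN, and Gnai3 in 6 cells of each subtype. Upstream of 2-AG stand receptors that drive phospholipase C. Grm5, the glutamate receptor mGluR5, averaged 146 TPM in D1 and 166 TPM in D2 MSN and was above 1 TPM in 35 cells of each. Homer1, its scaffold, averaged 200.2 and 165 TPM. Homer2 (1.68) and Homer3 (-1.01) passed the fold on 1 cell each, which held 89.4% and 100% of the sum of the higher group, and for Homer2 that was the library in well D04 with the astrocyte markers. The same library held all of the Fabp7 found, a carrier that astrocytes express, and no D2 MSN had any Fabp7 listed. The carrier Scp2 averaged 155 and 123 TPM. Grm5, Plcb1 and Gnao1 stood above Dagla and Daglb in both subtypes. They were named for their high means, so this follows from the choice and says nothing of the pathway. Other genes along the way from the glutamate receptor over phospholipase C to the G protein of CB1, such as Plcb3, Plcb4 and Gnai3, did not stand above Daglb in D1 MSN.

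**Figure D5:**
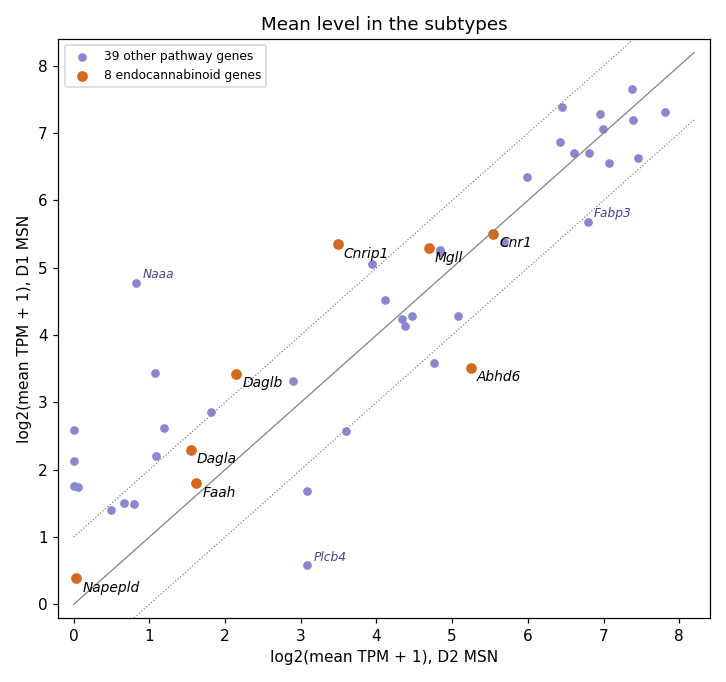
Mean level in D1 MSN (vertical axis) against D2 MSN (horizontal axis), both as log2 of the mean TPM plus 1, for the 8 genes (orange, named) and the 39 other pathway genes (blue), with the line of equal means and dotted lines at a 2-fold difference. Abhd6, Fabp3 and Plcb4 lie below the lower dotted line and Cnrip1, Daglb and Naaa above the upper one, while most genes at high levels lie between them.

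Cnr1 and Cnrip1 were the 2 of the 8 genes found in 50% or more of the MSN (41 and 40 of 78), as 3448 genes in all were. For these, the genes most alike in level across the 78 MSN were sought, by Spearman's rho, among the 3164 such genes that averaged 10 TPM or more. For Cnr1 they were R3hdm4 (rho 0.48), Pitpnc1 (0.47) and Chn1 (0.47), the last a GTPase-activating protein for Rac. Within the 4 sets of subtype and plate, rho ran from 0.33 to 0.62 for R3hdm4, from 0.01 to 0.67 for Pitpnc1 and from -0.11 to 0.65 for Chn1. For Cnrip1 they were Nomo1 (0.35), Gpi1 (0.34) and Cops7a (0.32). All 6 genes also followed the number of genes per cell (rho 0.33 to 0.52), which the cells share with every gene. Averaging rho within the 4 sets named none of the same 3 genes for Cnr1 and 1 of the 3 for Cnrip1. Pearson correlation of log2 of TPM plus 1 named 1 of the 3 for Cnr1 and none for Cnrip1. The order of likeness thus depended on the measure.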

How the data were processed

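TPM per gene and cell were made and deposited by the authors. Per the labels and the methods of the study, cDNA of single cells was made with the SMARTer Ultra Low Input RNA Kit v3 and sequenced on a MiSeq, and the submitters' processing notes name bcl2fastq 2.18, STAR 2.5.0 with mm10/GRCm38, featureCounts 1.5.1, FastQC 0.11.5 and DESeq2 1.14.1. How the TPM were computed is not given in the sources used here, and they keep no depth. The listed genes of a cell summed to 506588 to 958040 TPM. The genes and lists were chosen with earlier results of these data known. Cells were grouped by the marker gene in the labels, and Drd2 cells with Chat above 100 TPM, a limit chosen with the values known, were left out of the D2 MSN. All listed members were named, as were pathway genes averaging 1 TPM or more with a log2 fold of at least 1 in size, the 8 pathway genes with the highest mean, and the 3 genes most alike to each member found in 50% of MSN; Cnr2 and Trpv1 were named after their values were seen. With 1 sample per group no test was run. No doublet caller was used, as a well was sorted to hold 1 cell. Positions and exon overlaps came from GENCODE M21 (GRCm38). The pseudocount, mean, scaling, plates, cells and detection limit were varied in 54 alternatives, and 3 that leave out single cells were added after seeing the data. The steps were tested on simulated data. Tables were handled in pandas 2.3.3 and numpy 2.4.6 under Python 3.11.15, intervals and correlations came from scipy 1.17.1, and plots from matplotlib 3.10.9.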

Additional observations from a re-analysis of the deposited data

Results flagged for a closer look

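Cnrip1 stood at 204 TPM in one of the 2 cholinergic interneurons (well A08 of plate FACS051_5), above the highest D2 MSN at 203 TPM. The interneurons took no part in the comparison of the subtypes, and the value is given because it lay outside the range of the group whose reporter they share. The other interneuron (well B02) had 126 TPM, which 1 of the 38 D2 MSN exceeded.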

How the results depend on the processing

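The fold of Abhd6 stayed toward D2 MSN and ran from -2.33 to -1.12 over 11 alternatives. Cnrip1 ran from 0.71 to 4.44 and Daglb from 0.56 to 2.31, both always toward D1 MSN, while Cnr1, Dagla and Faah took the other sign under 5, 1 and 2 of the 11. Of the 88 alternative values of the folds, 13 differed from the reported one by more than 1.5 times, among them Cnrip1, Dagla, Daglb and Abhd6 with a plate left out. The count of 3 genes past a 2-fold difference ran from 2 to 4. The count of 15 other pathway genes became 1 with a pseudocount of 10 TPM and 4 with the difference of the means of log2 values. The count of 2 genes found in at least 50% of MSN became 4 with a detection limit of 0 TPM, 0 with a limit of 10 TPM, 1 without plate FACS051_5 and 1 without cells of fewer than 2000 genes. For the shares of cells, 125 of 144 alternatives stayed within the interval given, and 17 of the other 19 changed the detection limit. A larger pseudocount shrinks the folds of genes with low means and log means weigh high single cells less, both by construction, and other causes were not tested. TPM keep no depth, so how many reads stand behind a value cannot be checked, and cells listed at 0 may hold message that was not read. No paired analysis was possible because the replicate numbers only name cells and no test was run.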
